A study of Arabidopsis thaliana with 8 samples.

Results

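Transcript levels of 8 sugar starvation genes around ASN1 were followed in imbibed Arabidopsis thaliana seeds. The genes were ASN1 (DIN6, AT3G47340), AT3G15450, DIN2 (AT3G60140), SEN1 (AT4G35770), BCAT2 (AT1G10070), MCCA (AT1G03090), DRM1 (named DYL1 in RefSeq, AT1G28330) and BGAL4 (AT5G56870). They were chosen by locus, 8 of 33279 genes in the table, and all 8 were found in it. The choice was made with results of these data known: ASN1 and AT3G15450 had stood out in the salt comparison of Col-0. That comparison, the genotype differences within a medium and the difference of the salt effects, which rest partly on it, are therefore given for these genes as a description without a test. Tests were made of the salt comparison in serk1-1, whose group means come from other libraries. The genotype difference averaged over both media, which weights both Col-0 groups alike, was also tested. The spread in both tests was estimated from all 8 libraries, Col-0 included, so neither is fully independent of the choice. Which other values were in view when the genes were chosen is not recorded. A filter of at least 1 FPKM in at least 2 libraries was passed by 7 of the 8, and DIN2 passed it only through its Col-0 libraries. BGAL4 did not pass and was not tested.

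Seeds were imbibed for 24 h in MS liquid medium in 4 groups. They were serk1-1 with 200 mM NaCl, serk1-1 without added NaCl, Col-0 with 200 mM NaCl and Col-0 without added NaCl, with 2 libraries in each group and 8 in all. Col-0 is the Columbia-0 wild type. The line serk1-1 is named after SERK1, a receptor kinase gene, and the labels give neither the kind nor the place of its mutation. SERK1 itself (AT1G71830) stood at 1.12 and 1.05 FPKM in serk1-1 with NaCl, 1.53 and 1.4 in serk1-1 without, 2.4 and 1.06 in Col-0 with NaCl, and 2.7 and 1.59 in Col-0 without. Its genotype difference did not pass the test (-0.34 ± 0.24, adjusted p = 0.304), and without the place of the mutation these values do not check the genotype. FPKM scale fragments by the length of the transcript and by how many fragments of the library were mapped, so levels can be compared between genes. The totals lay between 885375 and 901215 for serk1-1 and between 777936 and 821247 for Col-0, and 18571 to 20648 genes per library stood above 0. Read counts were not used here, so the depth is unknown and no counting error can be attached to a value. In these whole-seed libraries, fewer cells of a type and less RNA per cell cannot be told apart.

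When sugar runs short, plant cells activate SnRK1, a kinase that acts as an energy sensor, and bZIP transcription factors of the C and S1 groups act with it on target genes. ASN1, first described as a dark-inducible gene, is a widely used target. It encodes glutamine-dependent asparagine synthetase, which stores nitrogen in a carbon-poor amino acid. Other genes of this response break down branched-chain amino acids as an alternative fuel, release sugars from glycosides and cell walls, or serve as markers of darkness, ageing and dormancy. In a germinating seed, reserves are mobilised before photosynthesis begins. The name of the group comes from seedlings and leaves, and no sugar was measured in these seeds.

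The sequences upstream of 4 of the genes are shown, because these genes differ most in their patterns below. ASN1 and AT3G15450 had the largest values in the Col-0 salt comparison, SEN1 had the smallest difference between the salt effects of the genotypes, and DIN2 was the one gene of the 7 tested that was lower in serk1-1. Each runs 5′ to 3′ on the strand of its gene up to the annotated start, and was read from the RefSeq TAIR10.1 genome. Capitals mark matches, on either strand, to CACGTG (the G-box), ACGTG (its core, contained in the G-box), TATCCA (a sugar-response element), ACTCAT (the proline and hypoosmolarity element) or GATAA (the I-box core). The G-box and its core are bound by bZIP factors.
ASN1, chr3:17441432-17441731, minus strand: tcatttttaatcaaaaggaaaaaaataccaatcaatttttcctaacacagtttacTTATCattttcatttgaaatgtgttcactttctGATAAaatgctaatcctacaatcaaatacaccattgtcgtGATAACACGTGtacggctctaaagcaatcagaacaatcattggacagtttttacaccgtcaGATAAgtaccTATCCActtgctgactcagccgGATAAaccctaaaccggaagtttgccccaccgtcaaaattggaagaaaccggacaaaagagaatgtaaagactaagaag
AT3G15450, chr3:5212684-5212983, plus strand: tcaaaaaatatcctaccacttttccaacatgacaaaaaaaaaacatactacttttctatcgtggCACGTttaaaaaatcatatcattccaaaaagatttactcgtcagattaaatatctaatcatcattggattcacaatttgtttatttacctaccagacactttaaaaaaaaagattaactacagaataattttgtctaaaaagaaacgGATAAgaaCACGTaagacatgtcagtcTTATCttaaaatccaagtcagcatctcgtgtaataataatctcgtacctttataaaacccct
DIN2, chr3:22216240-22216539, plus strand: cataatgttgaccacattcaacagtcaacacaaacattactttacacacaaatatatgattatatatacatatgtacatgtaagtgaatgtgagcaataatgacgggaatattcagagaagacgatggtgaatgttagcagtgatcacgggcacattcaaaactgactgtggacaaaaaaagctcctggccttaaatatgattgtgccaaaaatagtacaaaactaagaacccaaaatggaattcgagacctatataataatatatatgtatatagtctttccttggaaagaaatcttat
SEN1, chr4:16944678-16944877, plus strand, with the part next to a neighbouring gene left off: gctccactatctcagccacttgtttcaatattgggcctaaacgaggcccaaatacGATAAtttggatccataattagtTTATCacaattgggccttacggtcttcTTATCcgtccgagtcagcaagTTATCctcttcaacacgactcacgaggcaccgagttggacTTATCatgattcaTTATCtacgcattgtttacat

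Within 300 bases upstream, ASN1 held 1 G-box, at -167 to -162, with a GATAA ending directly before it, 1 TATCCA and 5 GATAA in all. AT3G15450 held 2 matches to the core ACGTG and 2 to GATAA. BCAT2 also held a core match, so that 3 of the 8 genes had one, against 25.6% of 27443 promoters of the same length. The complete G-box was found in 1 of 8, against 7.09% of promoters, TATCCA in 1 of 8 (16.2%), ACTCAT in 1 of 8 (DRM1, 14.8%) and GATAA in 6 of 8 (61.4%). SEN1 held 6 GATAA and no other element. A count of 6 or more was found in 34 promoters (0.124%), a comparison made after the count had been seen. DIN2 and MCCA held none of the 5 elements, as did 21.6% of promoters. Annotated genes on the opposite strand cover parts of 2 windows. The non-coding gene AT1G09025 covers all the matches of DRM1, and AT3G47341, at 0 FPKM in all 8 libraries, covers the TATCCA and the last 2 GATAA of ASN1. These matches describe letters in this window only.

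**Figure D1:**
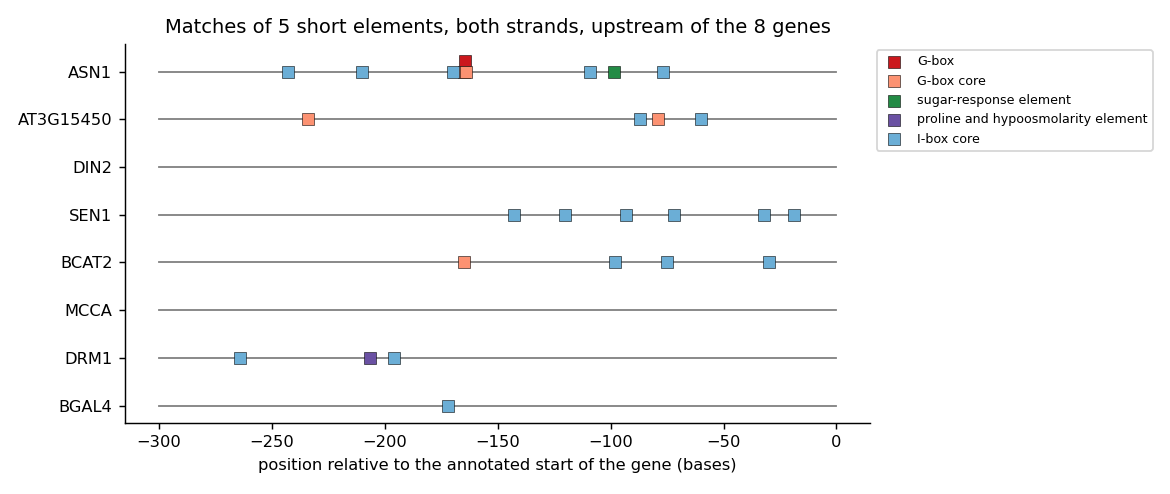
Positions of matches to 5 short elements in the 300 bases upstream of each of the 8 genes, on either strand, with the annotated start at 0 on the horizontal axis (bases). ASN1 is the only one of the 8 with a G-box, the 6 matches of SEN1 are all I-box cores, and DIN2 and MCCA have none.

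ASN1 (chr3:17437840-17441431, TAIR10.1, minus strand) was highest in serk1-1 with NaCl and lowest in Col-0 without. It stood at 59.41 and 67.05 FPKM in serk1-1 with NaCl, 18.9 and 30.34 in serk1-1 without, 36.79 and 27.22 in Col-0 with NaCl, and 4.85 and 4.46 in Col-0 without. The 2 middle groups, mutant seeds in plain medium and wild-type seeds in salt, overlapped, and the other neighbours in that order did not. The ratio of NaCl to no NaCl was 2.57 in serk1-1 and 6.88 in Col-0, and the ratio of serk1-1 to Col-0 was 1.98 with NaCl and 5.29 without. All differences given from here on compare group means of log2(FPKM + 1) and carry a standard error, and they understate the change of low values. Tests are limma's moderated tests with Benjamini-Hochberg adjustment over 15336 genes, two-sided, called at an adjusted p under 0.05. Averaged over both media, ASN1 was higher in serk1-1 by 1.56 ± 0.19 (n = 4 libraries per genotype, adjusted p = 0.00235), with both serk1-1 libraries above both Col-0 libraries in each medium. The salt difference in serk1-1 was 1.36 ± 0.27, with a 95% confidence interval from 0.74 to 1.98 and no overlap between the groups, but it did not pass over all genes (adjusted p = 0.726). The other asparagine synthetase genes, ASN2 and ASN3, reached at most 6.28 and 11.69 FPKM in any library, below ASN1 in every library of 3 groups. In Col-0 without NaCl, where ASN1 was lowest, ASN3 stood at 10.93 and 7.05 FPKM and ASN2 at 6.28 and 3.94.

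AT3G15450 (chr3:5212984-5214124, plus strand), whose product RefSeq names after its induction by aluminium, overlapped between the genotypes with NaCl but not without. With NaCl it stood at 190.94 and 162.37 FPKM in serk1-1 and at 170.94 and 161.48 in Col-0. Without NaCl it stood at 83.86 and 54.49 FPKM in serk1-1 and at 24.18 and 16.43 in Col-0. Its ratio of NaCl to no NaCl was 2.55 in serk1-1 and 8.19 in Col-0. The averaged genotype difference was 0.90 ± 0.19 (adjusted p = 0.0128), made up of 0.08 ± 0.27 with NaCl and 1.71 ± 0.27 without. The salt difference in serk1-1 was 1.37 ± 0.27 (95% confidence interval 0.74 to 1.99, adjusted p = 0.726). A gene on the opposite strand, AT3G15460, overlaps it by 41 bases and stood at 18.27 to 55.37 FPKM, and whether the counting used the strand is not stated in these sources.

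BCAT2 and MCCA act in the metabolism of branched-chain amino acids. BCAT2 is a branched-chain aminotransferase, the enzyme of the first step of their breakdown. MCCA is the biotin-carrying subunit of methylcrotonyl-CoA carboxylase, a later step of leucine breakdown. BCAT2 (chr1:3288087-3290471, plus strand) stood at 30.25 and 40.04 FPKM in serk1-1 with NaCl, 20.17 and 25.66 in serk1-1 without, 8.28 and 18.13 in Col-0 with NaCl, and 2.51 and 5.47 in Col-0 without. All 4 groups were apart, in that order. MCCA (chr1:739544-744184, plus strand) stood at 19.78 and 23.11 FPKM in serk1-1 with NaCl, 16.52 and 20.12 in serk1-1 without, 8.43 and 14.62 in Col-0 with NaCl, and 5.93 and 6.98 in Col-0 without. The serk1-1 groups of MCCA overlapped, and both lay above Col-0. Averaged over both media, BCAT2 was higher in serk1-1 by 1.87 ± 0.30 (adjusted p = 0.00514) and MCCA by 1.13 ± 0.20 (adjusted p = 0.00714). Salt differences in serk1-1 were 0.59 ± 0.42 for BCAT2 and 0.22 ± 0.28 for MCCA (adjusted p = 1 for both), with intervals from -0.38 to 1.57 and from -0.44 to 0.88. Genes on the opposite strand overlap BCAT2 (AT1G10090, 161 bases, 2.05 to 5.01 FPKM) and MCCA (AT1G03100, 300 bases, 1.82 to 6.49 FPKM).

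SEN1 and DRM1 are marker genes of leaf ageing and darkness and of dormant buds, and the biochemical role of DRM1 is not established. SEN1 (chr4:16944878-16946266, plus strand) stood at 85.75 and 109.62 FPKM in serk1-1 with NaCl, 34.28 and 49.56 in serk1-1 without, 22.6 and 33.99 in Col-0 with NaCl, and 7.15 and 11.68 in Col-0 without. Its 4 groups were apart, although the lower serk1-1 library without NaCl lay close to the higher Col-0 library with NaCl. SEN1 was higher in serk1-1 by 1.91 ± 0.22 (adjusted p = 0.00219). Its ratio of NaCl to no NaCl was 2.33 in serk1-1 and 3.01 in Col-0. The salt difference in serk1-1 was 1.21 ± 0.32 (95% confidence interval 0.47 to 1.95, adjusted p = 0.943).

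DRM1 (chr1:9933786-9935440, minus strand) had the highest level of the 8 per transcript length in serk1-1. It stood at 302.66 and 623.16 FPKM in serk1-1 with NaCl, 192.77 and 465.35 in serk1-1 without, 114.41 and 156.71 in Col-0 with NaCl, and 39.26 and 43.06 in Col-0 without. The serk1-1 groups overlapped and their replicates lay far apart, and every serk1-1 library was above every Col-0 library. Its averaged genotype difference, 2.26 ± 0.33 (adjusted p = 0.00411), was the largest increase among the 7. The salt difference in serk1-1, 0.53 ± 0.47 (adjusted p = 1), turned to -0.10 without replicate 1 of serk1-1 without NaCl.

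DIN2 and BGAL4 encode glycosidases, a beta-glucosidase and a beta-galactosidase, which release sugars from larger molecules. DIN2 (chr3:22216540-22220824, plus strand) went against the other genes in genotype. It stood at 1.02 and 0.87 FPKM in serk1-1 with NaCl, 0.53 and 0.67 in serk1-1 without, 11.94 and 10.85 in Col-0 with NaCl, and 3.48 and 3.05 in Col-0 without. Every serk1-1 library was below every Col-0 library, and within each genotype both NaCl libraries were above both others. The ratio of serk1-1 to Col-0 was 0.0829 with NaCl and 0.184 without. The averaged genotype difference of DIN2 was -2.04 ± 0.17. Because DIN2 passed the filter only through the genotype in which it was high, no p of the filtered fit is given for this genotype difference. In the fit of all genes without a filter, the adjusted p of the genotype difference was 0.00414. The salt difference of DIN2 in serk1-1 was 0.28 ± 0.24 (95% confidence interval -0.28 to 0.84, adjusted p = 1), at levels near the pseudocount. BGAL4 (chr5:23003909-23009672, plus strand) did not exceed 0.05 FPKM in any of the 8 libraries, and no fold is given.

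**Figure D2:**
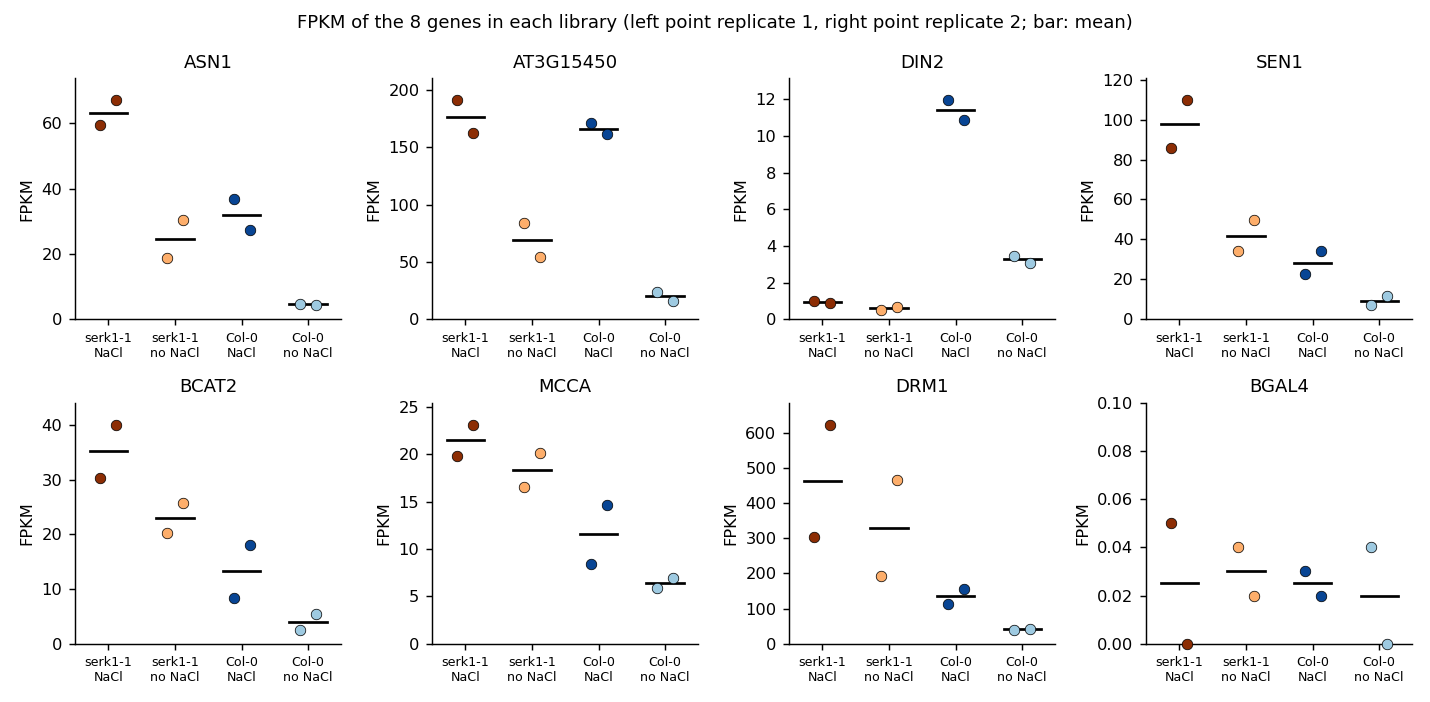
FPKM of each of the 8 genes in each library, 1 panel per gene with its own axis from 0, with points for the 2 libraries of a group and a bar for their mean. ASN1, AT3G15450, SEN1, BCAT2, MCCA and DRM1 have their highest mean in serk1-1 with NaCl. AT3G15450 overlaps between both NaCl groups, and MCCA and DRM1 overlap between both serk1-1 groups. DIN2 is low in all 4 serk1-1 libraries, and BGAL4 stays at or under 0.05.

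The genotype comparison, averaged over both media, placed 6 of the 8 genes higher in serk1-1. DIN2, which was lower, entered that fit only through Col-0 and is not counted as a call there, and BGAL4 was not tested. Of all 15336 genes tested, 11.9% were higher and 18.9% lower. The median difference was 1.56 over the 7 genes that passed the filter, as a description, and -0.19 over all genes. Median-of-ratios scaling of the libraries brought the median of all genes to 0.00 and the share of higher genes among those called to 53.0%, against 38.6% in the values as deposited. The 6 genes kept their calls under it, and DIN2 stayed lower. The number of genes called was 4722. It was 1981 when replicate 2 of serk1-1 with NaCl was left out, 2081 when replicate 2 of serk1-1 without NaCl was, and 2729 when replicate 1 of Col-0 without NaCl was. The 6 genes were called in each of these fits.

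The genotype difference was smaller with NaCl than without it for 6 of the 7 genes. With NaCl it was 1.77 ± 0.32 for SEN1, 1.69 ± 0.47 for DRM1, 1.43 ± 0.42 for BCAT2, 0.97 ± 0.27 for ASN1 and 0.88 ± 0.28 for MCCA. Without NaCl it was 2.05 ± 0.32 for SEN1, 2.84 ± 0.47 for DRM1, 2.32 ± 0.42 for BCAT2, 2.14 ± 0.27 for ASN1 and 1.37 ± 0.28 for MCCA. AT3G15450 had the widest gap between the media. DIN2 was the exception in sign, at -2.67 ± 0.24 with NaCl and -1.41 ± 0.24 without. The gap between the media, with NaCl minus without, equals the difference of the salt effects given below, so it is no separate result. That quantity was below 0 for DIN2 too, and above 0 for only 33.2% of all genes. These differences within a medium share Col-0 libraries with the comparison behind the choice of genes and carry no test here.

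The salt comparison in serk1-1, whose group means share no library with that of Col-0, asks how far NaCl moved these genes in the mutant. All 7 estimates were above 0, as were 41.6% of all genes, with a median of 0.59 against -0.06 over all genes. The NaCl libraries of ASN1, AT3G15450, SEN1, BCAT2 and DIN2 lay above those without NaCl, for DIN2 at levels near the pseudocount. The groups of MCCA and DRM1 overlapped. The share of all genes with groups apart in this way was not counted, so the separation is not read as a trait of these genes. None of the 7 passed the test, nor did any other gene (0% of 15336 called by limma). At an unadjusted p under 0.05 there were 661 genes, of which 3 were ASN1, AT3G15450 and SEN1. That fit left the replicate numbers out. With the replicate number as a block, limma called 12 genes, SEN1 among them (adjusted p = 0.0410). In Col-0 the estimates, given as a description, were 3.0 ± 0.27 for AT3G15450, 2.53 ± 0.27 for ASN1, 1.68 ± 0.47 for DRM1, 1.54 ± 0.24 for DIN2, 1.5 ± 0.32 for SEN1, 1.48 ± 0.42 for BCAT2 and 0.71 ± 0.28 for MCCA. ASN1 and AT3G15450 were chosen with that comparison known, so no call in it is given for the 7. Over all genes limma called 7 there, 0.0456% of those tested. Under alternatives with all 8 libraries this number ran from 0 (mean of at least 5 FPKM) to 1101 (replicate number as a block). The count became 36 when the second Col-0 library with NaCl was left out and 0 when any 1 of the other 7 libraries was.

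Each of the 7 genes had a smaller salt difference in serk1-1 than in Col-0. The difference of the salt effects was -1.63 ± 0.38 for AT3G15450, -1.26 ± 0.34 for DIN2, -1.17 ± 0.38 for ASN1, -1.15 ± 0.66 for DRM1, -0.89 ± 0.59 for BCAT2, -0.49 ± 0.40 for MCCA and -0.29 ± 0.45 for SEN1. Over all genes its median was -0.11, and it was above 0 for only 33.2% of them. No gene was called (0% of 15336 by limma, 165 genes at an unadjusted p under 0.05), and 2 were without replicate 1 of serk1-1 with NaCl. These values rest in part on the Col-0 libraries behind the choice of genes, so they were not tested.

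**Figure D3:**
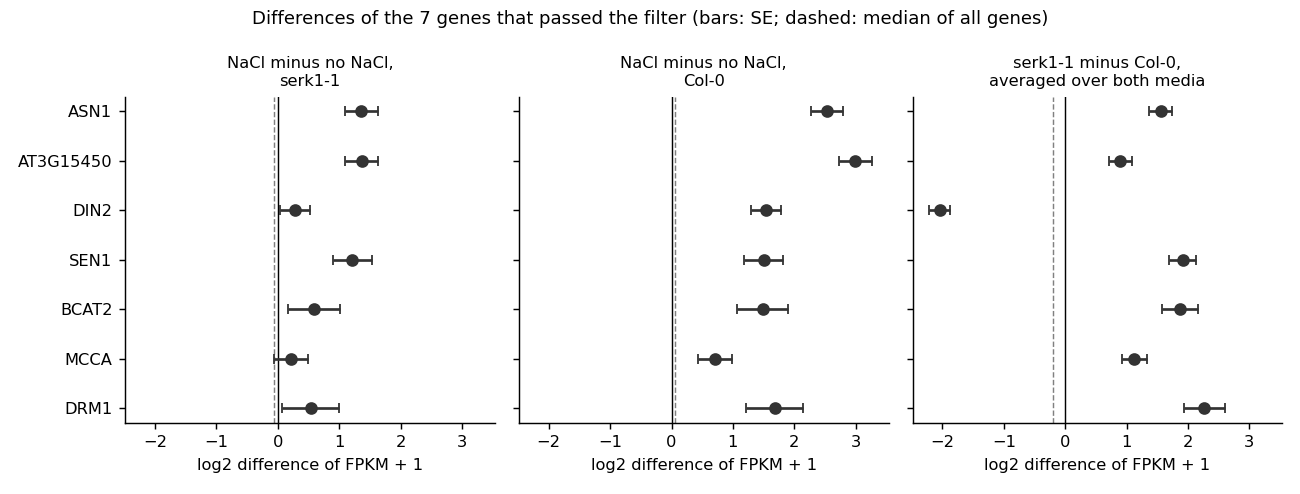
Log2 differences of FPKM + 1 for the 7 genes tested, with bars for the standard error and a dashed line for the median of all genes: NaCl minus no NaCl in serk1-1 (left) and in Col-0 (middle), and serk1-1 minus Col-0 averaged over both media (right). The salt differences are above 0 in both genotypes and smaller in serk1-1, and DIN2 alone lies below 0 on the right.

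The rest of the starvation response was read from lists of known genes, none of which had a gene called for salt in either genotype or for the difference of the salt effects. Over all 15336 genes, an unadjusted p under 0.05 was found for 4.31% in serk1-1, 11.3% in Col-0 and 1.08% for the difference. Unadjusted p under 0.05 were found for 3 of 11, 7 of 11 and 2 of 11 of the other dark-inducible and starvation markers in serk1-1, in Col-0 and for the difference. In the same order they were found for 1, 3 and 2 of 13 genes for branched-chain amino acid breakdown, 0, 0 and 0 of 7 SnRK1 subunits, 1, 0 and 0 of 7 bZIP factors and 1, 2 and 0 of 8 genes for asparagine and ammonium. They were found for 1, 4 and 1 of 9 ATG8 genes, 0, 0 and 0 of 2 sugar-induced genes and 2, 3 and 0 of 12 relatives of the 8 genes. The lists overlap: DIN3, DIN4, DRM2, ASN2 and ASN3 each stand in more than 1 and are counted in each. Of the 14 dark-inducible and starvation markers 11 were tested. By genotype 2 were higher and 1 lower in serk1-1, where 11.9% of all genes were higher and 18.9% lower. The genotype counts of the lists that follow are to be read against the same shares. DRM2, the close relative of DRM1, stood at 192.83 and 316.34 FPKM in serk1-1 with NaCl, 122.55 and 198.42 in serk1-1 without, 35.82 and 78.19 in Col-0 with NaCl, and 12.01 and 30.28 in Col-0 without. It was higher in serk1-1 by 2.58 ± 0.37 (adjusted p = 0.00398), and every serk1-1 library was above every Col-0 library. DIN3, a subunit of the branched-chain ketoacid dehydrogenase, was higher by 0.65 ± 0.18 (adjusted p = 0.0303).

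DIN10, a raffinose synthase family gene, had salt estimates below 0 in both genotypes, where those of ASN1 were above 0. DIN10 stood at 3.58 and 0.93 FPKM in serk1-1 with NaCl, 9.69 and 3.0 in serk1-1 without, 4.31 and 3.09 in Col-0 with NaCl, and 33.59 and 17.72 in Col-0 without. The serk1-1 groups overlapped and the Col-0 groups did not, and the estimates were -1.14 ± 0.59 in serk1-1 and -2.45 ± 0.59 in Col-0 (adjusted p = 1 and 0.180). By genotype it was lower in serk1-1, just past the threshold (-1.30 ± 0.41, adjusted p = 0.0490). Of the 11 markers tested, 9 had salt estimates above 0 in serk1-1 and 8 in Col-0. PRODH1, the proline dehydrogenase of mitochondria, stood at 41.15 and 53.24 FPKM in serk1-1 with NaCl and 14.67 and 15.2 in serk1-1 without (1.59 ± 0.35, adjusted p = 0.783). In Col-0 it stood at 31.23 and 56.39 FPKM with NaCl and 11.91 and 21.38 without (1.34 ± 0.35, adjusted p = 0.211). The genotype difference of PRODH1 was 0.03 ± 0.25. TPS8, TPS11 and STP1, the most abundant others, did not pass in genotype (0.20 ± 0.12, 0.01 ± 0.22 and 0.28 ± 0.29).

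Of 14 listed genes other than BCAT2 and MCCA for branched-chain amino acid breakdown 13 were tested, and 5 were higher and 0 lower in serk1-1, with a median of 0.22 over the list. They were E1A1 (0.83 ± 0.18, adjusted p = 0.0153), E1B1 (0.75 ± 0.13, adjusted p = 0.00657) and DIN3 of the branched-chain ketoacid dehydrogenase, CHY1 of valine breakdown (0.70 ± 0.14, adjusted p = 0.0110), and IVD, isovaleryl-CoA dehydrogenase (0.44 ± 0.13, adjusted p = 0.0377). MCCB, the partner subunit of MCCA, stood at 0.11 ± 0.14, between 13.79 and 15.79 FPKM in serk1-1 and between 11.6 and 17.45 FPKM in Col-0. On this scale per transcript length, the level of MCCA lay above that of MCCB in all 4 serk1-1 libraries and below it in all 4 Col-0 libraries, which was noticed after the values were seen. BCAT1, the relative of BCAT2, did not exceed 0.1 FPKM, and BCAT5 stood at 0.35 ± 0.12 (adjusted p = 0.0572).

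**Figure D4:**
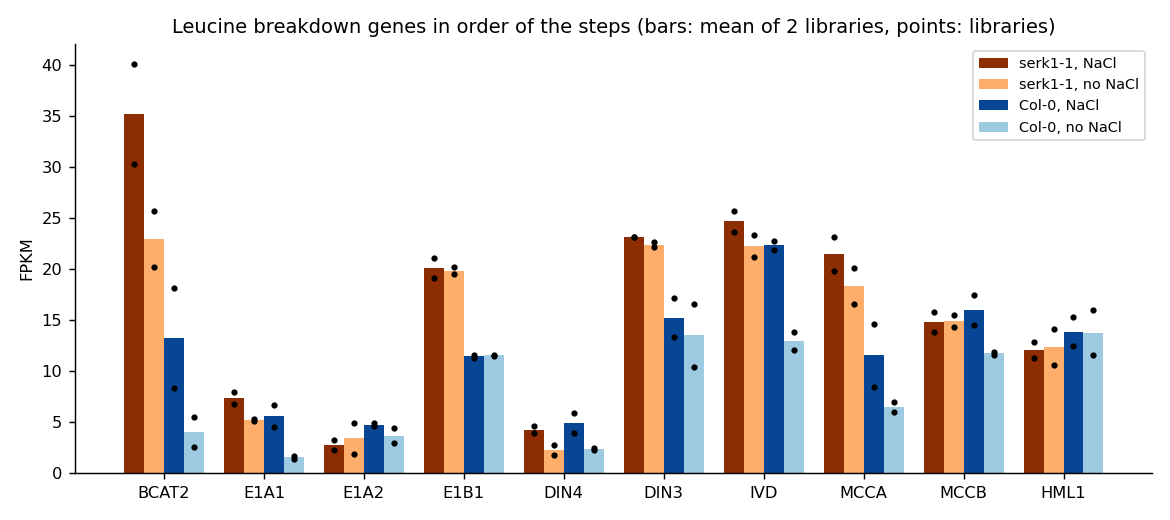
FPKM of genes for leucine breakdown in the order of the steps, with bars from 0 for the mean of 2 libraries and points for the libraries. BCAT2 at the first step and MCCA at a later one are higher in every serk1-1 library than in any Col-0 library, as are E1B1 and DIN3. The other genes shown, MCCB and HML1 among them, overlap between the genotypes.

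Of 7 subunit genes of the SnRK1 kinase itself, 0 were higher and 2 lower in serk1-1 (all genes 11.9% and 18.9%), KINB3 (-1.02 ± 0.31, adjusted p = 0.0406) and SNF4 (-0.61 ± 0.13, adjusted p = 0.0145). The catalytic subunit KIN10 stood at -0.31 ± 0.12 (adjusted p = 0.0907). Of 9 bZIP genes of groups C and S1, 7 were tested and 1 was lower, near the share of all genes (BZIP25, -0.52 ± 0.14, adjusted p = 0.0322), while BZIP1 and BZIP11 were not analysed here.

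In asparagine and ammonium metabolism, 8 of 13 genes were tested, and 2 were higher and 3 lower in serk1-1, beside 11.9% and 18.9% of all genes. The pair of glutamate dehydrogenase genes moved apart. GDH1 stood at 117.67 and 96.43 FPKM in serk1-1 with NaCl, 135.32 and 101.32 in serk1-1 without, 58.33 and 32.92 in Col-0 with NaCl, and 51.97 and 42.77 in Col-0 without (1.28 ± 0.21, adjusted p = 0.00588). GDH2 stood at 90.66 and 45.8 FPKM in serk1-1 with NaCl, 84.66 and 31.59 in serk1-1 without, 232.47 and 224.16 in Col-0 with NaCl, and 131.16 and 170.04 in Col-0 without (-1.66 ± 0.34, adjusted p = 0.0113). For both, no serk1-1 library fell within the range of Col-0. ASPGA1, an asparaginase, was higher (0.74 ± 0.16, adjusted p = 0.0129), whereas GLN1;1, a cytosolic glutamine synthetase (-1.12 ± 0.31, adjusted p = 0.0303), and GLT1, a glutamate synthase (-0.48 ± 0.14, adjusted p = 0.0386), were lower.

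The ATG8 family, whose proteins build the autophagosome membrane, split: 3 of 9 were higher and 5 lower in serk1-1, beside 11.9% and 18.9% of all genes. ATG8I (0.69 ± 0.14, adjusted p = 0.0115), ATG8C and ATG8F were the higher ones. ATG8B (-1.56 ± 0.26, adjusted p = 0.00612), ATG8G (-1.11 ± 0.22, adjusted p = 0.00981), ATG8D (-0.71 ± 0.14, adjusted p = 0.00944), ATG8H and ATG8E were the lower ones. Of 5 genes that sugar raises, 2 were tested, and 1 was higher: GPT2, a plastid glucose-6-phosphate transporter (1.34 ± 0.36, adjusted p = 0.0287). Among 18 family relatives of the 8 genes, 12 were tested and 3 were called, DRM2, BGAL3 (1.80 ± 0.18, adjusted p = 0.00150) and AT5G43830, a relative of AT3G15450 (-1.89 ± 0.20, adjusted p = 0.00181). AT3G15450 and AT5G43830 thus differed in opposite directions by genotype. Another relative of AT3G15450, AILP1, stood at -0.97 ± 0.30 with salt in serk1-1 and -1.22 ± 0.30 in Col-0, without passing (adjusted p = 1 and 0.190).

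Of these 26 genotype calls outside the 8 genes, 9 were kept under every alternative tried: DRM2, E1B1, GDH1, GDH2, ATG8B, ATG8D, ATG8G, AT5G43830 and BGAL3. The other 17 lost their call in at least 1, most often DIN10, GLT1 and ATG8F (11 of 19 alternatives each), IVD and ATG8E (10 of 19) and BZIP25 (9 of 19). Scaling alone ended some: DIN3, IVD, ATG8C and ATG8F with the totals made equal, and SNF4, BZIP25, GLT1 and ATG8E with median-of-ratios scaling. No direction turned.

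**Figure D5:**
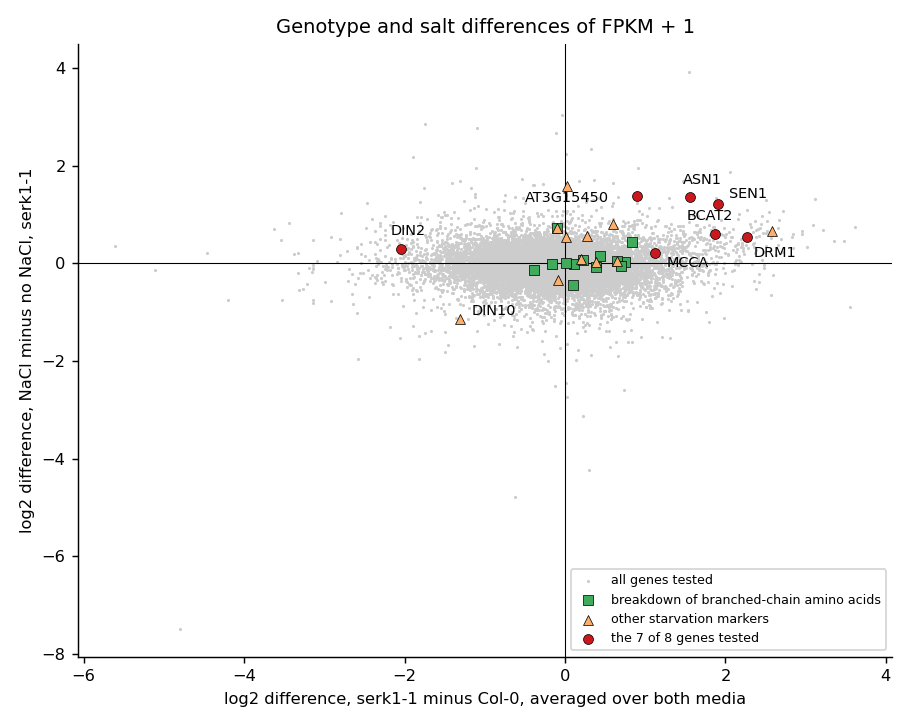
Difference between serk1-1 and Col-0 averaged over both media (horizontal axis) against the difference between NaCl and no NaCl in serk1-1 (vertical axis), both as log2 differences of FPKM + 1, for all 15336 genes tested (grey). The 7 genes tested (red) lie above 0 on the vertical axis and, apart from DIN2, to the right, while most genes for branched-chain amino acid breakdown (green) lie nearer to 0 and DIN10 lies at the lower left.

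Markers of seed reserves and seed tissues moved with genotype too. The 5 genes listed as seed storage markers were the cruciferins CRA1 and CRC, the Em proteins EM1 and EM6, and the oleosin OLEO1. All 5 were higher in serk1-1. Their summed level was 34821 and 56803 FPKM in serk1-1 with NaCl, 26606 and 45891 in serk1-1 without, 6444 and 15035 in Col-0 with NaCl, and 4376 and 8439 in Col-0 without. Of 3 endosperm markers, EPR1 was higher (3.01 ± 0.17, adjusted p = 0.000667), CP1 lower (-4.20 ± 0.46, adjusted p = 0.00193) and MAN7 not called. Their summed level was 1386 to 2005 FPKM in serk1-1 and 241 to 339 FPKM in Col-0, most of it EPR1. Of the seed coat markers, BAN, TT2 and TT10 were at 0 in all 8 libraries and MUM4 was lower in serk1-1 (-0.87 ± 0.28, adjusted p = 0.0485). The root hair markers COBL9 and EXPA7 were at 0 throughout. The part of the storage and endosperm markers in the genotype differences of the 8 genes was not tested.

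Replicates also differed in a shared way. SEN1, BCAT2, MCCA and DRM1 were higher in replicate 2 than in replicate 1 in all 4 groups, as were 12.1% of all genes tested and the summed storage markers. AT3G15450 was lower in replicate 2 in all 4 groups, as were 43.2% of genes. ASN1 was higher in replicate 2 in both serk1-1 groups and lower in both Col-0 groups.

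The genes most like these in pattern were sought among the 10701 genes that averaged 5 FPKM or more, by Pearson's r of log2(FPKM + 1) over the 8 libraries, as a description of libraries that share their normalisation. The mean of the standardised 7 genes includes DIN2, which ran unlike the others. Pairs with DIN2 had r from -0.58 to 0.11, and pairs without it from 0.64 to 0.99. Closest to that mean were AT1G14950 (0.993), CBSX5 (0.987), AT3G10130 (0.986), SRX (0.982), CYP71B10 (0.980), IVD (0.980), AT3G14880 (0.978) and AAE5 (0.978). CBSX5, for example, stood at 64.45 and 89.0 FPKM in serk1-1 with NaCl, 41.74 and 41.72 in serk1-1 without, 31.91 and 45.29 in Col-0 with NaCl, and 7.15 and 10.89 in Col-0 without. Closest to ASN1 alone were SKIP1 (0.994), BETA-OHASE 2 (0.985), AT3G10130 (0.985), AT2G45600 (0.981), PEX19-1 (0.979), AT2G17110 (0.979), AT4G21020 (0.977) and ATG8F (0.976). SKIP1 stood at 101.58 and 117.92 FPKM in serk1-1 with NaCl, 50.21 and 68.18 in serk1-1 without, 75.82 and 64.58 in Col-0 with NaCl, and 28.74 and 22.63 in Col-0 without, so that its 2 middle groups overlapped as those of ASN1 did.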

How the data were processed

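Total RNA of imbibed seeds was sequenced as 100-base read pairs, per the labels' protocols, which call the 2 libraries of a group biological replicates. Nothing says that they came from separate seed lots or cultures, so p-values measure the spread between these libraries. Genotypes follow the genotype label, although the sample titles for serk1-1 add "wild type". The authors deposited FPKM per gene, made with FastQC 0.10.1, TopHat2 and Cufflinks 2.1.1 on TAIR10, per the submitters' processing notes. These sources state neither strand setting nor annotation. No step of whole fragments that gave relative depths was found in low values.

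The members, the gene lists and the tests were chosen with earlier results of these data known. The 15336 genes that reached 1 FPKM in 2 or more libraries were fitted as log2(FPKM + 1) with limma 3.58.1 in R 4.3.3, as 4 group means in 1 fit with 4 residual and 3.48 prior degrees of freedom and a mean-variance trend. With 2 libraries against 2, no exchange of labels can reach an adjusted p under 0.05. The fit was tested on simulated data. Named genes were the 8 members, the 4 most abundant and the called genes of each list, and the 8 genes most like the members' mean and ASN1. PRODH1, ASN2, ASN3, MCCB and BCAT1 were added after their values were seen, and of the genes the rule names some are given by count only. Alternatives changed the pseudocount, the filter, the scaling, limma's options, the replicate block and the libraries, and equal totals and scaling with the block were added after the data had been seen. Of 33279 genes, 32815 matched RefSeq TAIR10.1 by locus. The FPKM table holds no coordinates, so those printed are from TAIR10.1.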

Additional observations from a re-analysis of the deposited data

How the results depend on the processing

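The genotype calls of the 6 higher genes were kept in all 19 alternatives. DIN2 stayed lower in 18 and is left out by a mean of at least 5 FPKM. For salt in serk1-1, 0 of the 7 were called in every alternative except the replicate number as a block, which called 1, SEN1 (adjusted p = 0.0410). DRM1 ran from -0.10 to 1.17 there with 1 library left out, and -0.10 was the one estimate among the tested results of the 7 genes that turned. DIN2 by genotype moved to -3.46 and -3.04 with NaCl and to -2.27 and -1.78 without, at pseudocounts of 0.1 and 0.5.

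Counts over all genes moved more, and the cause was not tested. For salt in serk1-1 (0 called), a pseudocount of 0.1 gave 2, median-of-ratios scaling, quantile normalization and no trend 1 each, the block 12, the block with that scaling 11, and leaving out a library 0 to 2. For salt in Col-0 (7 called), median-of-ratios scaling gave 24, quantile normalization 14, a pseudocount of 0.1 gave 2, the stricter filter at 5 FPKM 0, no trend 3, a fit of only the libraries compared 0, the block 1101, the block with that scaling 1027, and leaving out a library 0 to 36. For genotype (4722), the block gave 8681, the block with that scaling 8308, and leaving out a library 1981 to 5377. For the difference of the salt effects (0), leaving out a library gave 0 to 2. Replicate differences correlated between groups across genes (0.40 to 0.72). No label says that a number marks a shared batch, so the numbers were not taken as pairs. The salt comparison within a genotype has only 2 such pairs, and the averaged genotype comparison has more. A group left with 1 library is assumed to vary like the others. FPKM without counts leave the precision of low genes such as DIN2 in serk1-1 and BGAL4 unknown.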
